A study of Flechtneria rotunda with 10 samples.

Results

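In the desert green alga Flechtneria rotunda, 15 of the 17148 assembled genes of the deposited tables kept their signal while a drying drop lost its first water, and then had a low signal in every late, dry and rehydrated library. They were chosen on an expression signal scaled between libraries by the authors. A member had a mean of at least 5 in hydrated drops and an early desiccation mean of at least 0.5 times the hydrated mean. The highest of its 6 late, dry and rehydrated values was at most 0.33 times the lowest of its 4 hydrated and early values, and its highest stage mean was under 1.5 times the second highest. These criteria used all 10 libraries, so the drop between early and late desiccation, the near equality of hydrated and early drops and the lack of a return after rewetting were fixed by the choice and are described here without a test. Of 6714 genes with a hydrated mean of at least 5, the criterion on early desiccation left 5691, the cap on later values left 20 and the criterion on the highest stage left 15.

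The samples were cultures of strain SEV3VF49, grown for 6 weeks in 150 mL of medium and placed as 40 µL drops on a cover glass, with 2 libraries per stage. Hydrated drops were collected at once, early desiccation at 2.5 h with 25% of the volume lost and late desiccation at 7.5 h with 60% lost. Dry drops, fully flat, were collected at about 24 h after 11 h more in the chamber, and rehydrated drops 1 h after water was added. The labels give no drops kept wet for the same time, so drying and elapsed time cannot be told apart. Whether both libraries of a stage stem from separate cultures is not stated, so p-values reflect only how far these libraries differ, which could be technical. All groups share the strain and the medium, and which cells besides the alga were in the drops could not be checked by markers, because the files do not pair the gene identifiers with names or functions.

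Flechtneria belongs to the Scenedesmaceae, a family of green algae best known from fresh water, and its desert strains live in soil crusts that dry out and are wetted again. Cells of desiccation-tolerant algae lose nearly all their free water without dying and resume metabolism when water returns. The level of a messenger RNA in such cells depends on its synthesis and on its decay, which sequencing of RNA at a set of times does not separate. In bulk samples such as these drops, fewer cells with a transcript and less of it per cell cannot be told apart either.

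Library totals ran from 1696655 to 5409197 counts, and both late libraries, with 3561533 and 5409197, were the deepest. The late libraries also had reads for 16728 and 16972 genes, while the other 8 libraries had reads for 10742 to 13774. The dry libraries, with 10742 and 11512, read the fewest genes, and rehydrated replicate 2 had the lowest total. The members were low both in the libraries that read the most genes and in those that read the fewest. The cap on all 6 later libraries fixed this in advance. Whether depth plays a part was not tested. The tables are described by their names as holding differentially expressed genes, by a choice not given in the sources used here, so percentages given here refer to the table and not to the whole gene set of the alga.

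Here the members are numbered from 1 to 15 by how far the lowest earlier value stood above the highest later value, which is the rank the rule itself uses. Member 1 is TRINITY_DN91817_c0_g1 and member 2 is TRINITY_DN134332_c0_g1, and no sequence or annotation of any member was used here. Signal values appear scaled to gene length, judged from column sums alone, so levels of different members are compared only on that scale. The median signal over the 15 members was 46.2 in hydrated, 50.2 in early, 4.90 in late, 2.77 in dry and 2.58 in rehydrated drops. Over the 6714 genes with a hydrated mean of at least 5, the medians were 12.1, 11.9, 10.4, 9.09 and 11.2 in the same order of stages. Relative to its own hydrated mean, the median member stood at 98.1% at early desiccation, 14.8% at late desiccation, 7.01% in dry and 5.74% in rehydrated drops.

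**Figure D1:**
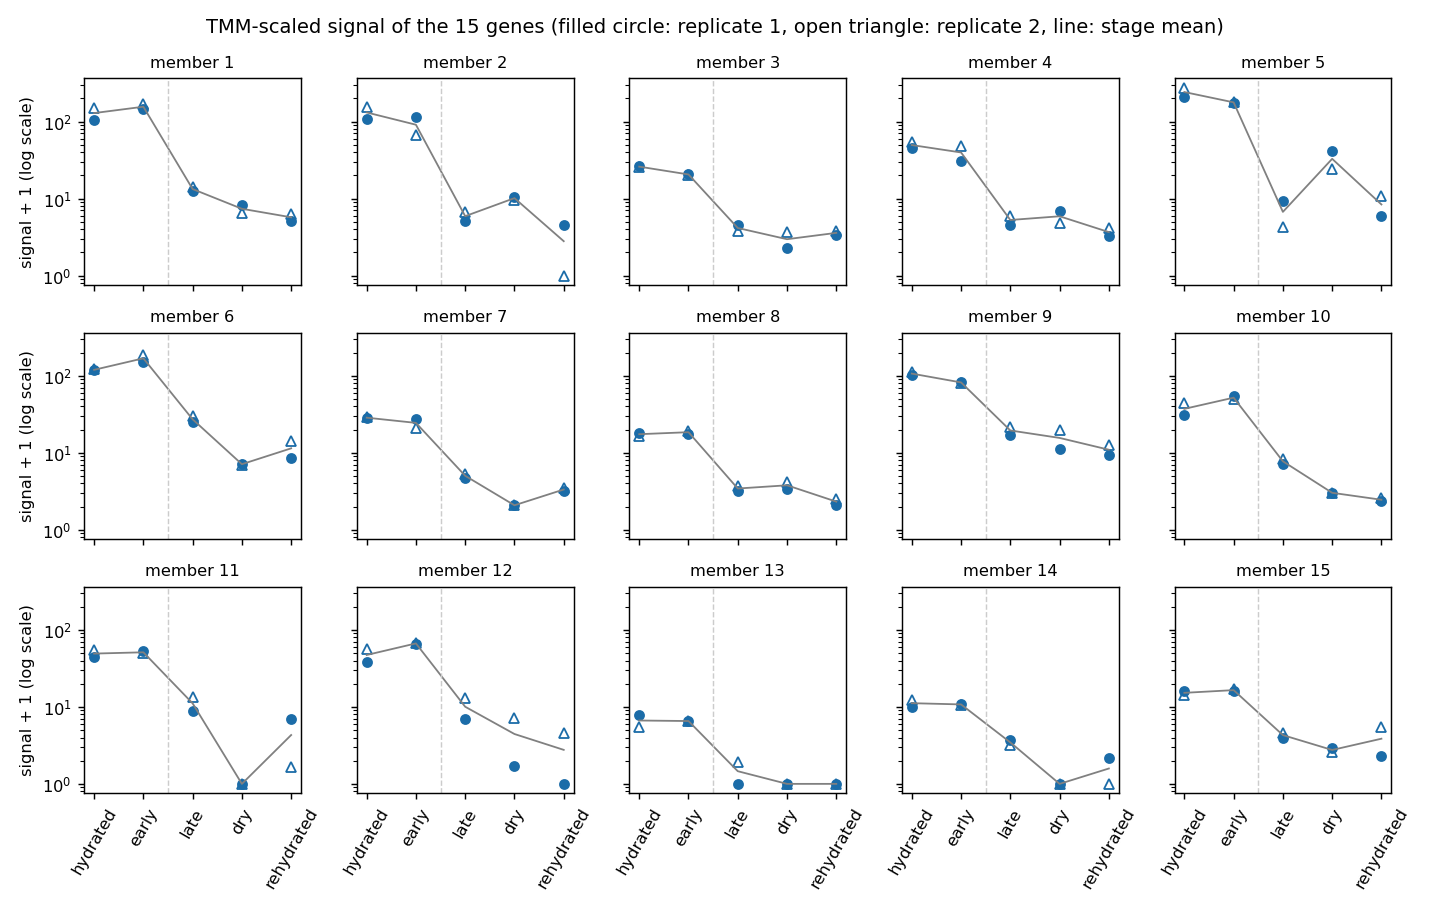
Signal plus 1 (vertical axis, log scale) of each of the 15 members in the 5 stages (horizontal axis). Filled circles are replicate 1, open triangles replicate 2, lines join stage means, and the dashed line marks the step between early and late desiccation. The stage mean is lower past that line in all 15 panels, in member 13 on 1 late count, and the paths after it differ, with member 5 rising to 31.8 in dry drops and members 11, 13 and 14 at 0 there.

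Member 1 had the widest gap. Its signal was 104 and 151 in hydrated drops, 143 and 166 at early desiccation, 11.4 and 13.1 in late drops, 7.26 and 5.46 in dry drops and 4.15 and 5.26 in rehydrated drops. At 12.3 ± 1.2 (SD, n = 2) in late against 155 ± 16.3 (SD, n = 2) in early libraries, the late mean was 9.61% of the hydrated mean. These values rest on 78 and 144 counts at late desiccation, against 680 and 779 at early desiccation. The late stage was at 0.0811 times the early stage in TMM-scaled counts, with a 95% interval of 0.0701 to 0.0935 that covers counting error only.

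Member 2 had a signal of 108 and 152 in hydrated drops, 114 and 65.9 in early, 4.04 and 5.76 in late, 9.58 and 8.66 in dry, and 3.58 and 0 in rehydrated drops. Its late mean was 3.76% of its hydrated mean. Its dry values were above its late ones without overlap on this TMM-scaled signal, while as shares of library totals they overlap. Its counts were 13 and 30 in late drops, 9 and 10 in dry drops and 5 and 0 after rehydration.

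The most abundant member per length, member 5, had 208 and 273 in hydrated and 173 and 179 in early drops. It was at 8.20 and 3.21 in late, 40.6 and 22.9 in dry and 4.89 and 9.86 in rehydrated drops. This was the largest step among the 15, 30.9-fold between the early and the late mean. It is also the shortest member by the ratio of counts to signal, at 0.0688 times the median gene, so 1 count was worth 6.77 and 5.73 signal units in the dry libraries. Its 6 later values rest on 3 and 2, 6 and 4, and 1 and 2 counts.

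Like member 1, members 6, 9, 11 and 12 were well counted, each with at least 1372 counts over the 10 libraries. Member 6 had a signal of 117 and 119 in hydrated, 151 and 183 in early, 23.7 and 28.6 in late, 6.21 and 5.97 in dry and 7.56 and 13.2 in rehydrated drops. Member 9 had 101 and 110 in hydrated, 82.3 and 79.3 in early, 16.1 and 20.8 in late, 10.1 and 19.0 in dry and 8.36 and 11.5 in rehydrated drops. Thus member 6 stepped down again between late and dry drops, while the dry values of member 9 lay on both sides of its lower late value. Member 11, TRINITY_DN72429_c4_g1, had 43.3 and 53.1 in hydrated, 51.9 and 48.4 in early, 7.79 and 12.4 in late, 0 and 0 in dry and 5.97 and 0.645 in rehydrated drops. Member 12 had 37.1 and 55.3 in hydrated, 64.0 and 67.4 in early, 5.98 and 12.1 in late, 0.697 and 6.19 in dry and 0 and 3.53 in rehydrated drops. The 2 libraries of member 12 differed in each later stage, by 2.02-fold at late desiccation and 8.88-fold in dry drops.

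Members 3, 4, 7, 8 and 10 formed a middle range, with hydrated means from 16.4 to 48.5. Member 7 had 27.2 and 27.8 in hydrated, 26.7 and 20.1 in early, 3.72 and 4.31 in late, 1.07 and 1.08 in dry and 2.14 and 2.51 in rehydrated drops. Member 10 had 29.6 and 42.6 in hydrated, 53.3 and 48.4 in early, 6.08 and 7.39 in late, 1.99 and 2.03 in dry and 1.33 and 1.56 in rehydrated drops. Both went on down after late desiccation, and member 7 was then somewhat above its dry level in both rehydrated libraries. Member 3 had 25.2 and 24.7 in hydrated, 19.8 and 19.2 in early, 3.54 and 2.75 in late, 1.30 and 2.63 in dry and 2.38 and 2.79 in rehydrated drops. Member 8 had 17.3 and 15.5 in hydrated, 16.5 and 18.4 in early, 2.16 and 2.69 in late, 2.34 and 3.20 in dry and 1.11 and 1.52 in rehydrated drops. On the deposited signal, dry and late values overlap in member 8, while in member 3 the dry ones lay just below the late ones. On TMM-scaled CPM of the counts, the scale of the tests, both statements change. There member 8 had 3.85 and 4.18 in late and 6.51 and 7.02 in dry drops, higher without overlap. Member 3 had 8.55 and 6.33 in late and 3.72 and 7.02 in dry drops, which overlap. Member 4 had a signal of 43.8 and 53.2 in hydrated and 30.0 and 47.3 in early drops. It was at 3.59 and 4.93 in late, 5.98 and 3.78 in dry and 2.22 and 3.10 in rehydrated drops. Its dry and late values overlap on both scales.

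Members 13, 14 and 15 were the least abundant, with hydrated means of 5.65, 10.2 and 14.2. Member 13 rests on 12 counts in all 10 libraries together, 3 and 2 in hydrated, 3 and 3 in early, 0 and 1 in late drops and 0 in the other 4 libraries. It did not reach the count minimum of the test. Its TMM-scaled late count was 0.0888 times the early one, with a 95% counting interval of 0.00193 to 0.732. With 0 counts in dry and in rehydrated drops, these intervals reach 2.44 and 1.65 times the hydrated level, so a lower level there was not detectable at this depth. Member 14 had a signal of 9.02 and 11.3 in hydrated, 9.89 and 9.63 in early, 2.74 and 2.17 in late, 0 and 0 in dry and 1.17 and 0 in rehydrated drops. Member 15 had 15 and 13.4 in hydrated, 15.2 and 15.8 in early, 2.97 and 3.62 in late, 1.9 and 1.58 in dry and 1.31 and 4.42 in rehydrated drops. It is the member nearest to the limit, through rehydrated replicate 2, where its value rests on 3 counts.

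The highest later value was at most 0.329 times the lowest earlier one among members, in member 15, and 0.326 times in member 12. The nearest genes outside the limit stood at 0.333, 0.355 and 0.369 times, and 14 genes that met the other criteria lay between the limit and 0.4 times. The first of these had a signal of 0 and 8.40 at late desiccation, 0 and 3.54 in dry and 4.28 and 1.28 in rehydrated drops, against 25.2 to 31.8 in the 4 earlier libraries. Another 5 genes met the cap but not the criterion on the highest stage. Their early means were 0.506 to 0.666 times their hydrated means, so they were already lower at early desiccation, and their late means were 4.55% to 16.2% of the hydrated means. The limit thus falls within a run of genes with similar ratios.

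**Figure D2:**
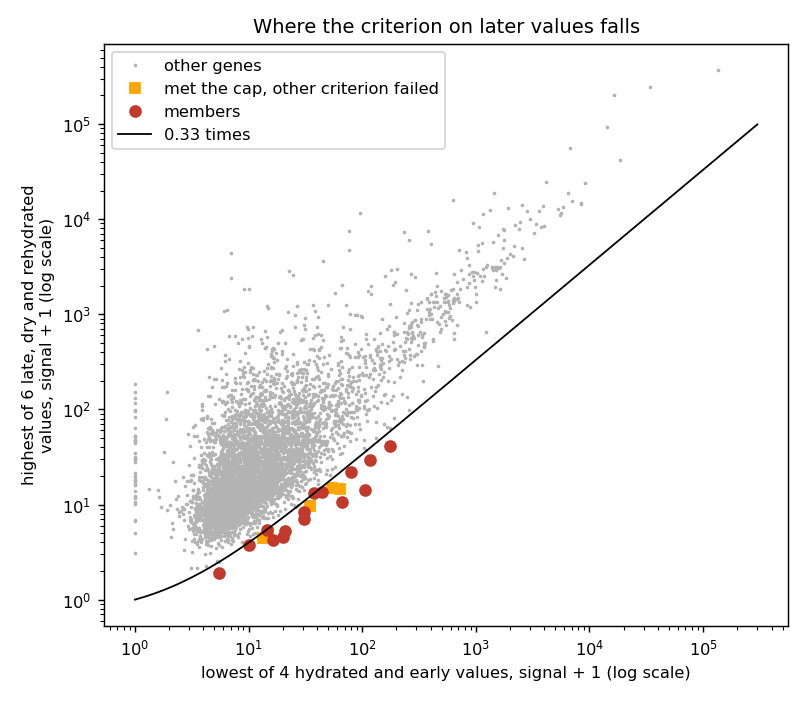
For each of the 5691 genes with a hydrated mean of at least 5 and an early mean of at least 0.5 times it, the lowest of the 4 hydrated and early values (horizontal) and the highest of the 6 late, dry and rehydrated values (vertical), both as signal plus 1 on log scales. The line is 0.33 times, red points are the 15 members and orange squares the 5 genes that met this cap but not the criterion on the highest stage.

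The 4 earlier libraries gave close values for most members. The higher of the 2 hydrated libraries was 1.02 to 1.49 times the lower, with a median of 1.23, and the early libraries differed by 1.03 to 1.73 times, with a median of 1.07. Early means ran from 0.690 to 1.42 times the hydrated means, above 1 in 7 members and below 1 in 8. Members 6, 10 and 12 were the highest, at 1.41, 1.41 and 1.42 times, and members 2, 5 and 9 the lowest, at 0.690, 0.733 and 0.766 times. By edgeR's quasi-likelihood test, 0 of the 14 members with enough counts passed the threshold in early desiccation against hydrated at an adjusted p below 0.05, and 0 did at an unadjusted p below 0.05, beside 11.2% of all 10467 tested genes called at the adjusted threshold. The rule asked for similar stages and took the lowest of the 4 earlier values for its cap. This count and the close values of the earlier libraries were thus favoured by the choice.

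The early mean was 3.98 to 30.9 times the late mean, with a median of 7.20, and the late values were on average 2.37% to 24.1% of the hydrated ones. The transcripts were lowered and not absent at late desiccation. In that stage 14 of the 15 members had reads in replicate 1 and all 15 in replicate 2, and the members together still held 698 and 1475 counts. All 14 tested members were called lower in late desiccation against early desiccation, with log2 fold changes from -5.33 to -2.0 and a median of -2.63, beside 5.85% of all tested genes called lower and a median of 0.01 over all of them. The same 14 were called lower against hydrated in late, dry and rehydrated drops, beside 13.4%, 22.3% and 20.2% of all tested genes. These comparisons share the hydrated libraries and were used by the rule, so nothing is read from these counts. In late against early desiccation, members 11, 14 and 15 lost the call without any 1 of these 4 early and late libraries, and member 12 without late replicate 1. Their log2 fold changes in those fits ran from -2.59 to -1.77. In each of these fits fewer genes of the whole table were called lower as well.

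**Figure D3:**
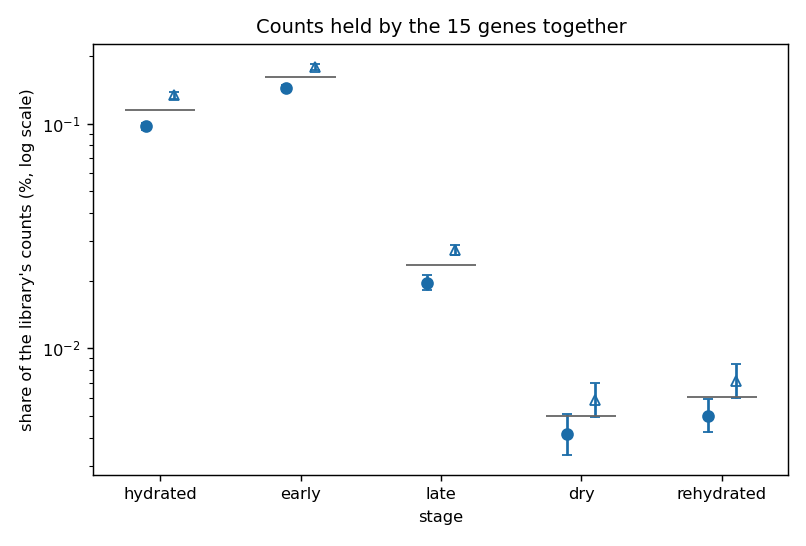
Share of each library's counts held by the 15 members together (vertical axis, percent on a log scale) by stage. Circles are replicate 1, triangles replicate 2, bars the 95% Wilson intervals and lines the stage means. The hydrated and early libraries lie at 0.0975% to 0.180%, the late ones at 0.0196% and 0.0273%, and the dry and rehydrated ones at 0.00413% to 0.00713%.

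The members held a small share of all counts, lower from late desiccation on. Together they took 0.116% ± 0.0257 of the counts in hydrated, 0.162% ± 0.0255 in early, 0.0234% ± 0.00543 in late, 0.0050% ± 0.00124 in dry and 0.00607% ± 0.00150 in rehydrated drops (SD, n = 2 each). The total over both libraries was 214 counts in dry drops and 258 in rehydrated drops, against 7813 in early ones. Members 1, 6 and 11 carried 16.6%, 17.0% and 16.1% of all member counts, so the shares lean on these 3. These shares are of library totals, and the TMM scaling raises dry values relative to them. Over all tested genes the median log2 fold change of dry against late desiccation was -0.29 on the TMM scale and -1.53 with library totals alone. For rehydrated against dry it was 0.07 and 0.60, and for rehydrated against late desiccation -0.11 and -0.82, on the same scales.

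Dry against late desiccation asks whether a gene already low at late desiccation went lower as the drop became flat and stayed so. The rule capped both stages without setting their order. Genes that rose far in dry drops were left out by this cap, which the other tested genes did not have to meet. Few rises and a lower median than over all tested genes were thus favoured by the choice. Of the 14 tested members 5 fell, 1 rose and 8 did not pass the threshold by edgeR's quasi-likelihood test. The share of members that fell was 35.7%, beside 20.3% of all tested genes called lower, and 22.4% of all tested genes were called higher. The median log2 fold change of the members was -0.61, beside the -0.29 of all tested genes. On the deposited signal, the dry values lay below the late ones without overlap in 8 of the 15 members and above them in 2, beside 43.0% and 33.5% of genes with a hydrated mean of at least 5. The 53.3% of members below without overlap is near that background, and no difference from other genes was tested.

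Member 6 fell to 6.09 ± 0.175 in dry drops, against 26.1 ± 3.45 at late desiccation, as mean and SD of 2 libraries (edgeR log2 fold change -1.82, SE 0.32, adjusted p = 0.000867). Member 7 fell to 1.08 ± 0.0141, against 4.01 ± 0.421 (edgeR log2 fold change -1.63, SE 0.39, adjusted p = 0.00520). Both kept the call with any library left out. Member 10 fell to 2.01 ± 0.0283, against 6.73 ± 0.925 (edgeR log2 fold change -1.46, SE 0.41, adjusted p = 0.0138), a call that rests on 9 dry counts. The adjusted p of member 10 was 0.0641 without late replicate 2, 0.0646 without dry replicate 1 and 0.0901 without dry replicate 2.

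Members 11 and 14 had no counts in either dry library. Member 11 had 471 counts over both late libraries, which makes it at least 31.2-fold lower in dry drops, taking 3 counts over both dry libraries as the floor (edgeR adjusted p = 0.000684). Against hydrated drops, with 989 counts, it was at least 148-fold lower at that floor. Member 14 had 25 counts at late desiccation, and the floor allows no more than a statement of at least 1.66-fold lower (edgeR adjusted p = 0.0318). Its adjusted p was 0.0694 without late replicate 1, 0.0538 without late replicate 2, 0.0987 without dry replicate 1 and 0.127 without dry replicate 2, so this call holds only with all of these libraries.

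Member 5 was the only member called higher in dry drops than at late desiccation. Its signal was 31.8 ± 12.5 in dry and 5.71 ± 3.53 in late drops, as mean and SD of 2 libraries (edgeR log2 fold change 3.20, SE 0.69, adjusted p = 0.00311). The call holds with any library left out, but it compares 10 counts with 5, a ratio of 10.1 after scaling with a 95% counting interval of 3.13 to 37.5. Even so, its dry mean was 13.2% of its hydrated mean. Members 2, 4 and 8 had fitted changes above 0 too, at 1.17, 0.44 and 0.75 on the log2 scale, with edgeR adjusted p of 0.126, 0.444 and 0.136. The other 5 members without a call, 1, 3, 9, 12 and 15, ran from -1.07 to -0.03.

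**Figure D4:**
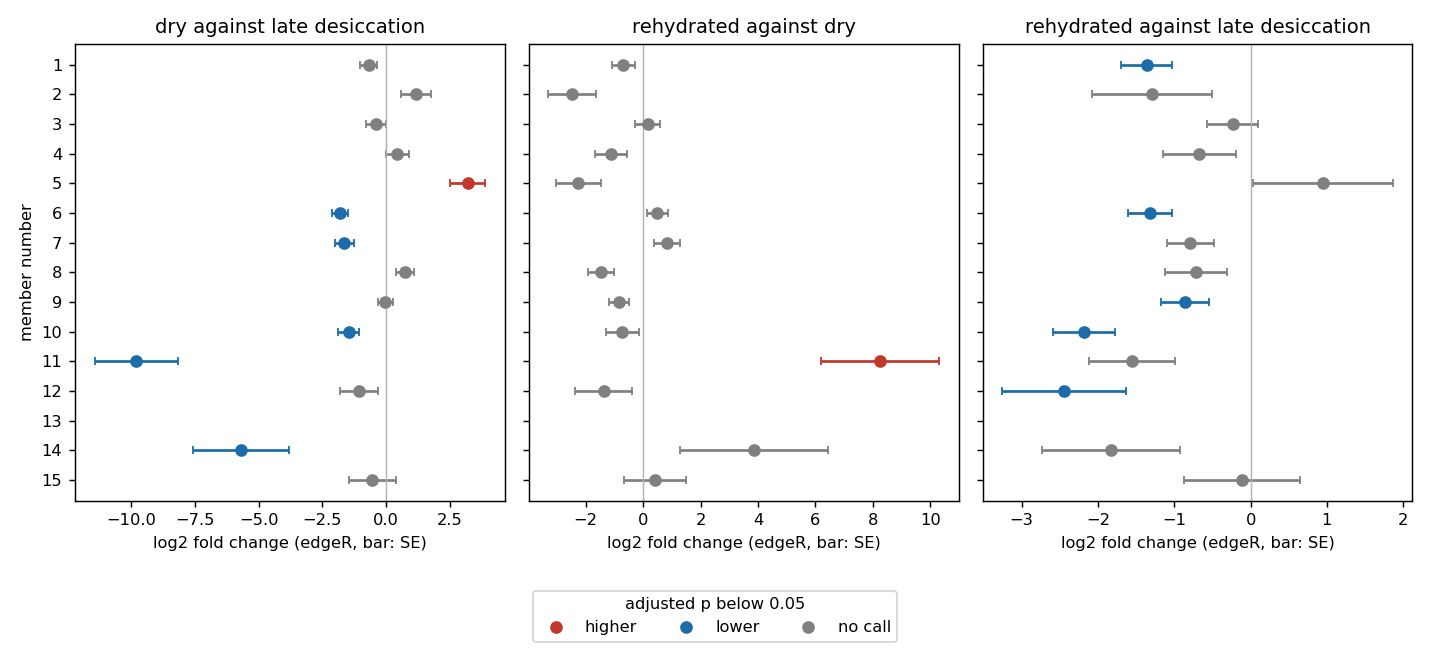
Log2 fold change from edgeR with its standard error (horizontal axis) for the 14 tested members (vertical axis, by number) in dry against late desiccation, rehydrated against dry and rehydrated against late desiccation. Each panel has its own horizontal range, and the fitted changes of members 11 and 14 against dry libraries without counts are no bounds. Blue marks members called lower, red members called higher at an adjusted p below 0.05 and grey the rest. In the left panel 5 members are blue and 1 is red, in the middle 1 is red, and on the right 5 are blue.

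Rehydrated against dry asks what 1 h of water did to these low levels. Of the 14 tested members 1 rose and 0 fell, beside 2.73% of all tested genes called higher and 2.39% called lower by edgeR's quasi-likelihood test. At an unadjusted p below 0.05 there were 5, members 2, 5, 8 and 9 with changes below 0 and member 11 above it. The share of all genes at that unadjusted threshold was not counted. DESeq2 called member 2 lower and member 11 higher, beside 527 lower and 251 higher of all 10467 tested genes. The median log2 fold change was -0.70, with 8 members below 0 and 6 above it, beside 0.07 for all tested genes. On the signal scale the rehydrated values lay below the dry ones without overlap in 6 of 15 members and above them in 3, beside 19.0% and 31.4% of genes with a hydrated mean of at least 5. The depth limits this comparison, since 20 of the 30 dry values and 18 of the 30 rehydrated values of the members rest on under 10 counts. The cap of the rule also left out genes that rose far after rewetting, so few rises were favoured by the choice.

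TRINITY_DN72429_c4_g1, member 11, was the gene that rose. It had 42 counts in rehydrated replicate 1 and 4 in replicate 2, against 0 in both dry libraries, which is at least 10.4-fold higher at the floor of 3 counts over the stage (edgeR adjusted p = 0.0468). The rehydrated libraries differed by 9.26-fold, and the rehydrated mean was 6.86% of the hydrated mean. With 1 library left out its log2 fold change ran from 5.93 to 9.14, and it kept the call only when that library was rehydrated replicate 2. In each of these fits fewer genes of the whole table were called higher as well.

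Member 2 had the lowest fitted change, -2.47 on the log2 scale (SE 0.83, edgeR adjusted p = 0.0952), with 5 and 0 counts in rehydrated against 9 and 10 in dry drops. Without rehydrated replicate 1 its adjusted p was 0.0481. Members 5 and 8 followed at -2.26 (SE 0.78) and -1.47 (SE 0.46), with edgeR adjusted p of 0.101 and 0.0904. Members 3, 6 and 7 had fitted changes of 0.16, 0.50 and 0.84, none past the threshold (edgeR adjusted p = 0.881, 0.417 and 0.312).

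Rehydrated against late desiccation sets the wetted drops beside the last drying stage before the drop was flat. Of the 14 tested members 5 fell and 0 rose, beside 16.0% of all tested genes called lower and 20.5% called higher by edgeR's quasi-likelihood test. At an unadjusted p below 0.05 there were 7, all with changes below 0, and the share of all genes at that threshold was not counted. DESeq2 called 4 lower and 0 higher, beside 1101 lower and 1773 higher of all 10467 tested genes. The fitted change was below 0 in 13 of 14, with a median of -1.08, beside -0.11 over all tested genes. The rehydrated values lay below the late ones without overlap in 11 of 15 members and above them in 0, beside 32.8% and 36.1% of genes with a hydrated mean of at least 5. The cap of the rule acts on both stages, but was met at late desiccation in 10 members, in dry drops in 4 and in rehydrated drops in 1, so late values are more often the ones next to the limit. This cap also left out genes that rose far after rewetting, so the lack of rises and the lower median were favoured by the choice.

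The members that fell were 1, 6, 9, 10 and 12. Member 10 had 1.45 ± 0.162 in rehydrated drops, against 6.73 ± 0.925 at late desiccation, as mean and SD of 2 libraries (edgeR log2 fold change -2.18, SE 0.41, adjusted p = 0.0014). Member 6 had 10.4 ± 4.01, against 26.1 ± 3.45 (edgeR log2 fold change -1.32, SE 0.29, adjusted p = 0.00401). These calls hold with any library left out. Member 1 had 4.71 ± 0.781, against 12.3 ± 1.2 (edgeR log2 fold change -1.36, SE 0.34, adjusted p = 0.00770), and its adjusted p was 0.0617 without rehydrated replicate 1. Member 12 (edgeR log2 fold change -2.44, SE 0.81, adjusted p = 0.0342) had an adjusted p of 0.176 without late replicate 2 and 0.173 without rehydrated replicate 1.

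Member 9 lay close to the threshold, with a log2 fold change of -0.86 (SE 0.31, edgeR adjusted p = 0.0477). Its adjusted p was 0.0691 without rehydrated replicate 2, 0.0716 and 0.0741 without hydrated replicate 1 or 2, 0.0726 and 0.0733 without early replicate 1 or 2, 0.0818 and 0.240 without late replicate 1 or 2, and 0.232 without rehydrated replicate 1. On the other side of it was member 11, with a log2 fold change of -1.56 (SE 0.57, edgeR adjusted p = 0.0510). Without rehydrated replicate 1, members 11 and 2 were called lower as well, with edgeR adjusted p of 0.000369 and 0.0475.

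Across the 3 later stages the members were lowest in dry drops in 6 cases, in rehydrated drops in 7 and at late desiccation in 1, which is member 5. Member 13 was at 0 in both dry and rehydrated drops and is counted as a tie. Among the 6714 genes with a hydrated mean of at least 5, the lowest of these stages was dry in 40.8%, rehydrated in 22.0% and late desiccation in 36.4%, with ties in 0.834%. The cap left out genes that rose far in dry or rehydrated drops, so few members lowest at late desiccation were favoured by the choice. This order also rests on low counts, under 10 in 20 of the 30 dry and 18 of the 30 rehydrated values. A difference from other genes was not tested. After 1 h of water the rehydrated means of the 15 members stood at 0% to 20.1% of their hydrated means, a range that the cap of the rule bounds. Member 15 was the highest at 20.1%, followed by member 3 at 10.3%.

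By the ratio of counts to signal, the members ranged widely in relative length. This ratio stands in for a length that was not measured, and it shifts between libraries. In hydrated replicate 1, 1 count was worth 0.266 signal units in both member 6 and member 8. In dry replicate 1 it was worth 0.565 in member 6 and 0.335 in member 8. The relative length, taken from the ratio of counts to signal, could be had for 14 of the 15 members and ran from 0.0688 to 2.53 times that of the median gene, or from percentile 1.55 to 93.9 of genes with a hydrated mean of at least 5. Assembly identifiers carry a number for the group of reads from which a gene was assembled. Members 4 and 5 come from 1 such group, members 6 and 12 from another, and reads may be split between such genes, so these pairs are not independent. In dry against late desiccation, members 4 and 5 had fitted changes of 0.44 and 3.20 on the log2 scale. Only that of member 5 passed, on 10 counts against 5, and the difference between these members was not tested. In all, 9 of the 15 members (60.0%) share their group with other genes of the table, beside 61.9% of genes with a hydrated mean of at least 5.

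These groups hold 11 further genes, of which 4 had a hydrated mean of at least 5. Of those 4, 3 had a late mean of at least 0.5 times the early mean, and so did not share the step of the members. The fourth, from the group of member 7, came near it, with a signal of 192 and 242 in hydrated, 155 and 247 in early, 42.6 and 58.6 in late, 46.3 and 69.1 in dry and 27.3 and 65.1 in rehydrated drops. A gene from the group of member 3, picked with its values in view, went the other way. It had a signal of 2.18 and 2.65 in hydrated, 4.18 and 3.52 in early, 11.7 and 12.7 in late, 24.7 and 24.3 in dry and 40.6 and 47.6 in rehydrated drops. Differences between these genes and the members were not tested.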

How the data were processed

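RNA sequencing of 10 libraries, 2 in each of 5 stages, was analysed from 2 tables of 17148 assembled genes. Per the submitters' processing notes, CASAVA 1.4, Trimmomatic 0.35, Bowtie2 2.2, RSEM 1.2.28 and DESeq2 were used, with no order. How the assembly was made and annotated is not given in the sources used here. Ribosomal RNA was removed with oligos, per the labels' protocols. The deposited expected counts are estimates per gene, not normalised, with 10.1% to 19.7% of a library's values not whole (tolerance 0.005). The deposited signal was scaled between libraries with TMM, per the name of the table. Columns were matched to samples by the replicate and time in their names.

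The members and the comparisons were chosen with earlier results of these data known. Expected counts were rounded, filtered with filterByExpr (minimum count 10, minimum total 15, leaving 10467 genes) and scaled by TMM. The model of edgeR 4.0.16 (R 4.3.3), glmQLFit with 5 stages and no covariate, was fitted to all 10 libraries and tested with glmQLFTest, two-sided, with Benjamini-Hochberg adjustment over all tested genes at 0.05. Each standard error is the absolute log2 fold change divided by the square root of F. The fit was also run on simulated counts, with the same dispersion for all genes and changes in dry libraries only. That setting is simpler than these data, and no result here rests on it. The floor of 3 counts per stage (both libraries together) and the 95% intervals reflect counting error only, as the labels record no molecular identifiers. Members named by identifier are the 2 ranked highest by the rule and up to 2 with the largest fold change among those called higher in rehydrated against dry, of which there was 1. The rank is the lowest of the 4 earlier values plus 1, over the highest of the 6 later values plus 1. Alternatives were other scalings and filters, DESeq2 1.42.0, limma 3.58.1 on the log2 signal, a replicate block, fits restricted to the compared stages and omission of each library.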

Additional observations from a re-analysis of the deposited data

How the results depend on the processing

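The rule chose 15 genes, and 51 with a cap of 0.5 times, among them all 15. On TMM-scaled CPM of the counts it chose 19 genes, 12 of them members, and on CPM by library totals 18, 7 of them members, so the membership depends on the table and scaling more than the number does. With 1 library left out it chose 15 to 28 genes, and at most 3 members were lost. Without the criterion on the highest stage, an alternative chosen after seeing the data, it chose 20.

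In dry against late desiccation, with 5 members lower and 1 higher, library totals alone gave 9 lower, beside 5989 of all 10467 tested genes. A fit of the compared stages gave 0 higher, with member 5 under its count filter, beside 2333 of 9699 genes. With 1 library left out, 3 to 5 were lower and 1 higher. In rehydrated against dry, with 0 lower and 1 higher, DESeq2 gave 1 lower, beside 527 of all 10467 tested genes. The number higher was 0 with limma on the log2 signal plus 1, with the replicate number as a block and with only the compared stages, where 4 members were tested. Over all genes these 3 settings gave 295 of 17148, 346 of 10467 and 0 of 6375 higher. With 1 library left out, 0 to 1 were lower and 0 to 1 higher. In rehydrated against late desiccation, with 5 lower, library totals alone gave 10, beside 3411 of all 10467 tested genes. Limma gave 3 with either pseudocount, beside 3893 (plus 1) and 3236 (plus 0.1) of 17148 genes. The compared stages alone gave 3 of 11 tested, beside 1553 of 10058 genes. With 1 library left out, 3 to 5 were lower and 0 higher. Other alternatives stayed within 1.5 times of each count, and no called member changed the sign of its fold change in any alternative that tested it.

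The labels do not say that a replicate number marks a shared culture or day, and deviations of same-numbered libraries correlated at 0.000866 to 0.156 across genes between stages. Under the replicate block, the calls were 5 lower and 1 higher in dry against late desiccation, 0 and 0 in rehydrated against dry and 5 and 0 in rehydrated against late desiccation. Over all 10467 tested genes they were 2078 and 2397, 384 and 346, and 1635 and 2201 in the same order.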
